A study of Mus musculus with 12 samples.

Results

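The heat shock proteins and DnaJ chaperones of the mouse striatum were followed here as 67 genes of the 15397 in the expression table. They were taken by name: every symbol starting with Hsp90, Hspa, Hspb, Hspd, Hspe, Hsph, Dnaja, Dnajb or Dnajc. The set held 3 Hsp90 genes, 11 Hsp70 genes, 3 Hsp110 genes, 2 mitochondrial chaperonin genes, 5 small heat shock genes, 4 Dnaja, 11 Dnajb and 25 Dnajc genes. It also held Hspbp1 and Hspbap1, which match by spelling, and the pseudogene Dnajc19-ps. The small heat shock genes were counted by name only and include Hspb11, also known as IFT25. RNA was sequenced from the microdissected striatum of C57BL/6 mice in 4 groups of 3 mice: Wild-type on vehicle, Wild-type on PLX3397, R6/2 on vehicle and R6/2 on PLX3397. R6/2 is a transgenic model of Huntington's disease that expresses a fragment of mutant human huntingtin, with an expanded polyglutamine tract, from the human huntingtin promoter. PLX3397 is an inhibitor of Csf1r, a receptor that microglia need to survive, and was given at 275 ppm in chow from week 7 to week 11 of age. Each library came from 1 mouse.

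Hsp70 proteins bind exposed hydrophobic stretches of unfolded proteins in a cycle driven by ATP. J-domain proteins, the Dnaj genes, bring clients to Hsp70 and trigger its ATP hydrolysis, while Hsp110 proteins exchange its nucleotide. Hsp90 acts later on kinases, receptors and other nearly folded clients. The heat shock factor Hsf1 drives the inducible members through heat shock elements, and the unfolded protein response of the endoplasmic reticulum drives its own set. Several of these chaperones have been reported to slow the aggregation of polyglutamine proteins.

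The stretches upstream of 6 members are shown because they hold, or do not hold, the letters of elements through which genes of this set are known to be induced. RefSeq promoter entries (build GRCm38.p6) were matched for 55 of the 67 members. Each sequence is the 250 bases before an annotated start, read 5′ to 3′ along the gene. Capitals mark matches on either strand to the heat shock element letters GAANNTTC or TTCNNGAA, or to the endoplasmic reticulum stress response element, CCAAT and CCACG separated by 9 bases.
Hspe1 promoter, chr1:55087898-55088147, plus strand: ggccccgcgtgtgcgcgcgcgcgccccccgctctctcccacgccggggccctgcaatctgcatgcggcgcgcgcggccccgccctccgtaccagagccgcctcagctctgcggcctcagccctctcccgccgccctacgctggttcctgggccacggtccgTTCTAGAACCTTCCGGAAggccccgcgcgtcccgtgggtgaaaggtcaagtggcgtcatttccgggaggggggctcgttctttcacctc
Hsph1 promoter, chr5:149636337-149636586, minus strand: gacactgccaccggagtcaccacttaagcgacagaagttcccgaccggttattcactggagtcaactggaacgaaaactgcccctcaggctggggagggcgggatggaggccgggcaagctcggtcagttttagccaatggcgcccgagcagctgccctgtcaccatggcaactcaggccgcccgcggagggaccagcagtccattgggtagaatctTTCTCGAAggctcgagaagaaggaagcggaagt
Hspb1 promoter, chr5:135887669-135887918, plus strand: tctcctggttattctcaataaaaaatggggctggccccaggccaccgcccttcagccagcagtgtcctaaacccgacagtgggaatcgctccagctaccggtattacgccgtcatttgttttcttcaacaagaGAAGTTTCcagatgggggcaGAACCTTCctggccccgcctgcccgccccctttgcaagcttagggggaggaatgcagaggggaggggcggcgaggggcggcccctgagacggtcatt
Dnajc3 promoter, chr14:118937682-118937931, plus strand: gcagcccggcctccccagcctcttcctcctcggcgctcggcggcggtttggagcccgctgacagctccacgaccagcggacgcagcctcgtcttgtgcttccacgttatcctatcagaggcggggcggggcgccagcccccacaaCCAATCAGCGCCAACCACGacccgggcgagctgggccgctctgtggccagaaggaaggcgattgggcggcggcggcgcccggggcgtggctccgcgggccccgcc
Hspa5 promoter, chr2:34771840-34772089, plus strand: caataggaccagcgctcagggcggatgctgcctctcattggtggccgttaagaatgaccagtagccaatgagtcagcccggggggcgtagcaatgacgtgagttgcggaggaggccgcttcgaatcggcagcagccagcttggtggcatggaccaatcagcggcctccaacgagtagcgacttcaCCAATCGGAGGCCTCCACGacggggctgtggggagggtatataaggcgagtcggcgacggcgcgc
Dnajb5 promoter, chr4:42949617-42949866, plus strand: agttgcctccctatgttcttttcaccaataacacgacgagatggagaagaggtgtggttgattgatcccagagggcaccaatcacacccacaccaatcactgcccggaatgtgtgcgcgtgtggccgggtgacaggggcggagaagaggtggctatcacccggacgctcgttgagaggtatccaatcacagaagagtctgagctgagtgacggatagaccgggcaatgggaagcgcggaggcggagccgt
Over the 300-base promoter window, GAANNTTC was found in 13 of the 55 members (23.6%), against 6.89% of 11814 measured genes with a promoter entry. The other arrangement, TTCNNGAA, was found in 6 members (10.9%), against 8.19%. The 2 patterns overlap in the longer element of 3 units, GAANNTTC followed by NNGAA, which 4 members held (7.27%, against 0.567% of all genes): Dnajb6, Hspd1, Hspe1 and Hsph1. In Hsph1 that match lies after the annotated start, in bases not printed above. The Hspd1 and Hspe1 genes overlap on chromosome 1 (55077833 to 55088243 and 55088148 to 55091317), so 1 element may be counted for both. The stress response element was found in 3 members (5.45%, against 0.161%): Dnajc3, Hsp90b1 and Hspa5. These are matches of letters, and no binding was measured. Dnajb1, Dnajb9 and Dnajb11 had a promoter entry and matched none of these patterns. A missing match does not show that an element is absent. Hspa8, Hspa13 and Hsp90aa1 had no entry.

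Libraries held 18902120 to 24293208 reads. The deposited values are log2 CPM, counts scaled to library size, and 65 of the 67 members had at least 10 reads in every library. Csf1r fell from 6.66 ± 0.07 to 0.71 ± 1.52 log2 CPM on the drug in wild type (mean ± SD, n = 3) and from 6.84 ± 0.28 to 0.12 ± 1.13 in R6/2. The 9 microglial markers summed to 372 to 512 CPM in the 6 vehicle libraries and to 20.8 to 38.9 CPM in the 6 drug libraries. The 9 markers of medium spiny neurons, the main striatal cells, summed to 2259 to 5717 CPM in wild-type vehicle, 5263 to 10150 CPM in wild-type PLX3397, 497 to 1185 CPM in R6/2 vehicle and 471 to 1713 CPM in R6/2 PLX3397 libraries. Ttr, a choroid plexus gene, stood at 12.1 log2 CPM in R6/2 vehicle library 1 and reached 9.89 in library 1 of wild type on PLX3397, against 4.01 to 6.09 in the other 10 libraries. Slc17a7, a marker of cortical excitatory neurons, was low in the first 2 R6/2 mice on PLX3397, at 2.79 and 3.06 log2 CPM, and spanned 5.67 to 9.86 elsewhere. The 5.67 was that of wild-type PLX3397 library 1. There the 8 cortical markers summed to 89.5 CPM, beside 93.3 and 57.2 CPM in those 2 R6/2 mice. In the remaining libraries the sum was 260 to 1476 CPM. Fewer cells of a type and less RNA per cell cannot be told apart in such bulk tissue.

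Per length of transcript, Hsp90ab1 was the most abundant of the 66 members with a transcript model in wild-type vehicle striatum, at 666 ± 49.2 RPKM, reads scaled to transcript length and library size (mean ± SD, n = 3). This gene encodes the constitutive cytosolic Hsp90. Hsp90b1, the Hsp90 of the endoplasmic reticulum, followed at 153 ± 4.74 RPKM. Hsp90aa1, the inducible cytosolic form, stood at 114 ± 6.74 RPKM. Hspa5, the Hsp70 of the endoplasmic reticulum, stood at 104 ± 2.98 RPKM and Hspa9, that of mitochondria, at 90.5 ± 4.86 RPKM. Hspa8, the constitutive cytosolic Hsp70 that also strips clathrin from vesicles, ranked 12 at 57.2 ± 2.50 RPKM. Other genes match 64.8% of the Hspa8 transcript and 68.7% of the Hsp90aa1 transcript at 95% identity or more. For Hsp90ab1, Hspa5 and Hspa9 the share is 0%. How reads matching several places were counted is not known, so the order of these genes is uncertain. In R6/2 on vehicle Hspa8 stood at 215 ± 55.8 RPKM, above Hsp90b1 at 122 ± 19.1 RPKM and below Hsp90ab1 at 847 ± 26.3 RPKM.

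Among vehicle-treated mice, R6/2 was compared with wild type with microglia present. The cortical markers summed to 260 to 674 CPM in these wild-type mice and 660 to 1476 CPM in these R6/2 mice. Their part in the members' differences was not tested. Hspa8 was the 1 member called. Its levels were 7.43, 7.50 and 7.56 log2 CPM in the 3 wild-type vehicle mice (3125 to 4412 reads) and 9.77, 9.29 and 9.06 in the 3 R6/2 vehicle mice (10373 to 23151 reads). The groups were more than 1 log2 unit apart, and the wild-type mice spanned little more than 0.1. Hspa8 rose by 1.88 ± 0.34 on the log2 scale (estimate ± SE; 3.68-fold; limma, adjusted p = 0.0296 over all genes). The count was 1 of 67 members called, against 2.11% of all genes (0.617% called higher and 1.49% lower), with a median change of 0.07 over the members and 0.01 over all genes. The Hspa8 gene lies on chromosome 9, from 40801276 to 40805202 (GRCm38). Stretches covering 64.8% of its transcript occur at 95% identity or more in 8 other genes, 7 of them pseudogenes, and how the authors treated reads matching several places is not given in the sources used here.

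Leaving out any 1 of the 3 R6/2 vehicle mice, or wild-type vehicle mouse 1 or 2, ended the Hspa8 call (adjusted p = 0.0535 to 0.132), while the estimate stayed between 1.68 and 2.04. The lowest of these estimates, 1.68 (adjusted p = 0.0755), came without R6/2 vehicle library 1, the one high in Ttr. Without wild-type PLX3397 library 1 the count was 2. In the same contrast all 9 medium spiny neuron markers were below 0, with 4 called lower and a median of -2.48; the part of these cells in the Hspa8 result was not tested.

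On PLX3397, Hspa8 stood at 7.75, 8.05 and 9.12 log2 CPM in wild type and at 9.18, 9.01 and 9.88 in R6/2. One wild-type mouse, number 3, reached the R6/2 range, so these groups overlapped. The R6/2 level was higher by 1.05 ± 0.34 (2.07-fold; limma, adjusted p = 0.0326). Leaving out mouse 1 or 2 of the wild-type drug group, or mouse 1 or 3 of the R6/2 drug group, ended this call (adjusted p = 0.0595 to 0.106), as did removal of each library's trend with GC content and length (0.94, adjusted p = 0.0565). Averaged over vehicle and drug, 6 mice against 6, Hspa8 was higher in R6/2 by 1.47 ± 0.24 (limma, adjusted p = 0.00236), and this call held under all 21 alternatives run (adjusted p = 0.000792 to 0.0113). In wild type, all 3 drug-treated mice lay above all 3 vehicle mice, by 0.81 ± 0.34 on average (adjusted p = 0.118, not passed). In R6/2 the drug difference of Hspa8 was -0.02 ± 0.34.

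**Figure D1:**
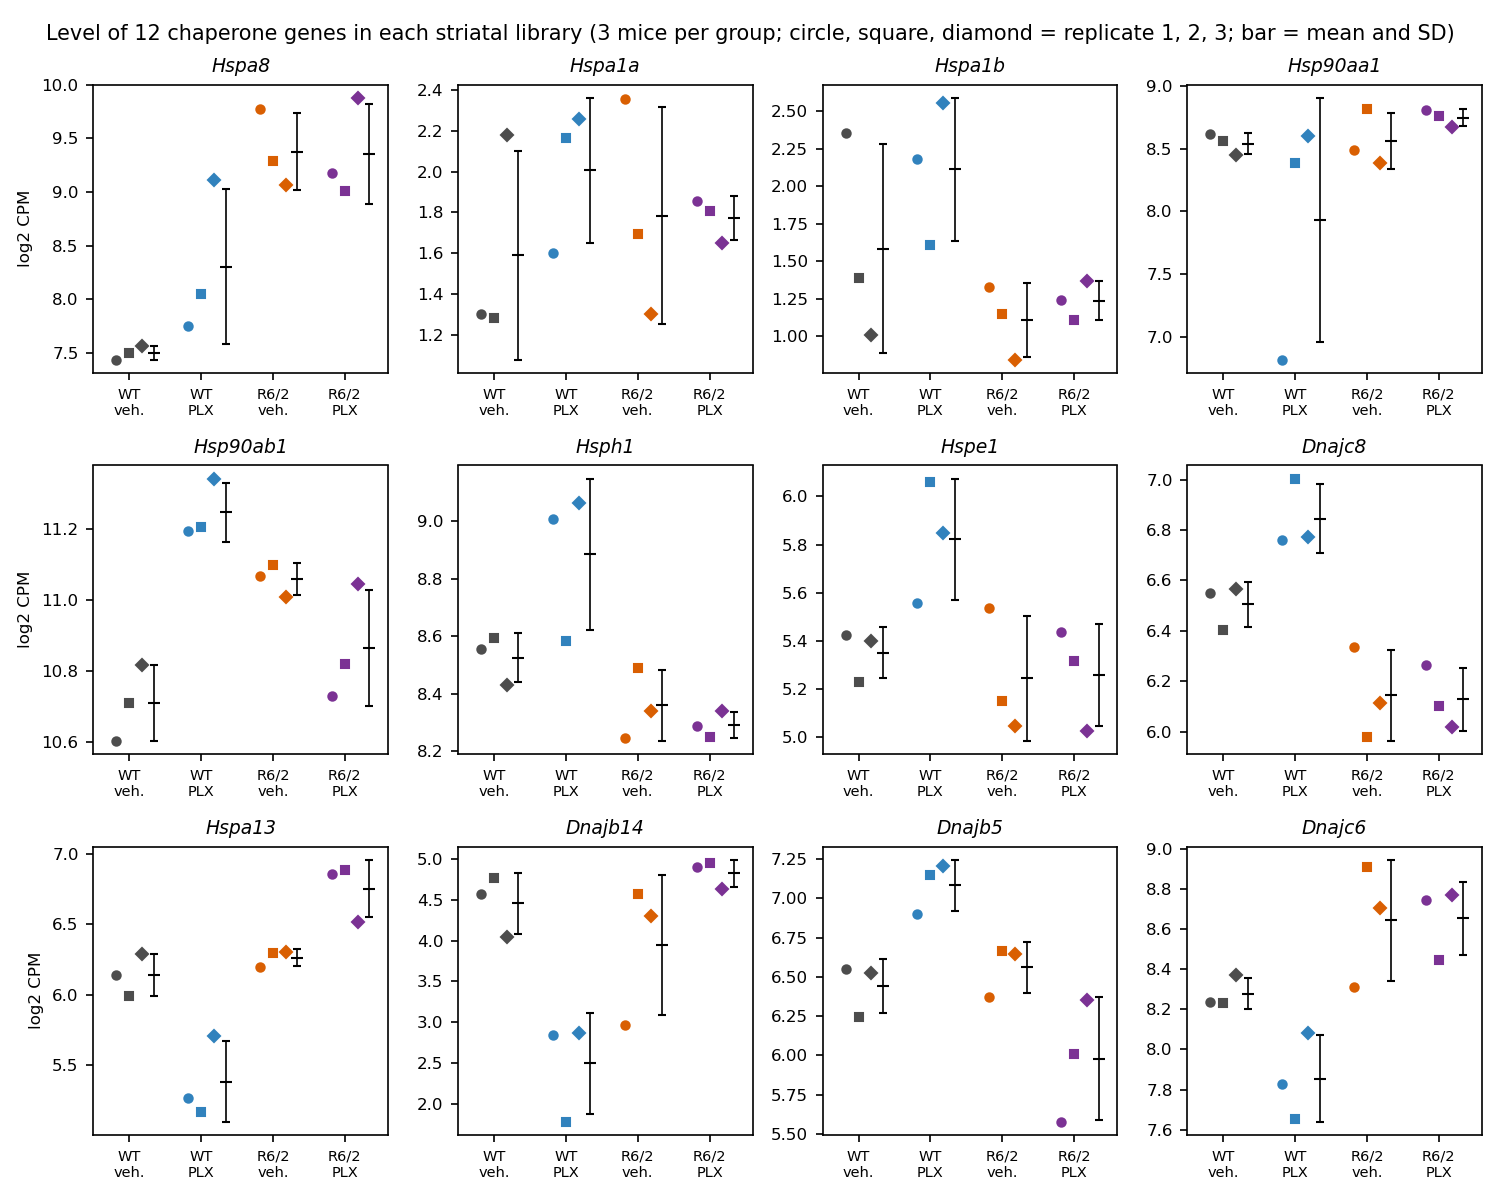
Levels of 12 members in each library (vertical axis, log2 CPM; axes differ in range and do not start at 0), by genotype and treatment, 3 mice per group, with the mean and SD as a bar beside the points. Hspa8 lies above 9.0 in all 6 R6/2 mice and at 7.43 to 7.56 in wild-type vehicle mice, while Hspa13 and Dnajb14 are lowest in wild-type mice on PLX3397.

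The stress-inducible Hsp70 genes did not pass the test in R6/2 on vehicle. Hspa1a stood at 1.30, 1.28 and 2.18 log2 CPM in wild-type vehicle mice and at 2.36, 1.69 and 1.30 in R6/2 vehicle mice. Hspa1b stood at 2.36, 1.39 and 1.01 against 1.33, 1.15 and 0.84. The groups overlapped for both genes, with differences of 0.19 ± 0.33 and -0.48 ± 0.35 (adjusted p = 0.762 and 0.448). These levels rest on 33 to 133 reads per library, and the 2 genes are near-identical copies whose reads cannot be fully separated (75.7% and 78.5% of their transcripts are matched elsewhere). The other members with the smallest p values were Dnajc11 (0.30 ± 0.10), a mitochondrial membrane organiser, Dnajc8 (-0.36 ± 0.13), found with splicing factors, and Dnajb4 (-0.36 ± 0.13). None of these passed (adjusted p = 0.113 to 0.158). Nor did Dnajc30 (0.41 ± 0.17), Hsp90ab1 (0.35 ± 0.15), Dnaja3 (0.22 ± 0.09) or Hspb3 (2.25 ± 0.95), with adjusted p = 0.184 to 0.197. Groups did not overlap for 17 members, against 33.5% of all genes, and 8 passed an unadjusted p under 0.05, against 22.6%.

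PLX3397 changed 11 of 67 members in wild type, 7 higher and 4 lower, against 14.2% of all genes (5.93% higher and 8.30% lower), so the share of members called was near the background. The median change was 0.20 over the members and 0.00 over all genes. Markers of other cells moved in the same contrast: the 9 medium spiny neuron markers were all above 0 (median 0.78, 0 called), and the 7 astrocyte markers summed to 4505 to 5677 CPM on vehicle and 3208 to 4204 CPM on the drug (2 called lower). Their part in the members' changes was not tested. The 4 that fell were Dnajb14 and Dnajb9, both J-domain proteins of the endoplasmic reticulum, Hspa13, a microsomal Hsp70, and Dnajc3, an inhibitor of eIF2α kinases. Dnajb14 stood at 4.57, 4.76 and 4.04 log2 CPM on vehicle and at 2.84, 1.78 and 2.87 on the drug. The nearest mice of these groups were more than 1 unit apart. It fell by 1.96 ± 0.41 on the log2 scale (limma, adjusted p = 0.0159).

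Hspa13 stood at 6.14, 5.99 and 6.28 log2 CPM on vehicle and at 5.27, 5.17 and 5.71 on the drug. All drug-treated mice lay below all vehicle mice, a change of -0.75 ± 0.16 (adjusted p = 0.0159). Dnajc3 changed by -0.80 ± 0.18 (adjusted p = 0.0211) and Dnajb9 by -0.43 ± 0.13 (adjusted p = 0.0461).

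The 7 that rose in wild type on the drug included Hsp90ab1, at 10.60, 10.71 and 10.82 log2 CPM on vehicle and 11.19, 11.21 and 11.34 on the drug (0.54 ± 0.15; limma, adjusted p = 0.0352). Dnajb5, a neuronal J-domain protein, stood at 6.55, 6.24 and 6.53 on vehicle and at 6.90, 7.15 and 7.21 on the drug (0.64 ± 0.19; adjusted p = 0.0434). For both genes all drug-treated mice exceeded all vehicle mice. Hspb1, the small heat shock protein Hsp27, had 28, 43 and 64 reads on vehicle and 81, 83 and 95 reads on the drug (1.00 ± 0.30 on the log2 scale; adjusted p = 0.0478). Dnajc7, which carries clients between Hsp70 and Hsp90, rose by 0.44 ± 0.12, Dnajc17 by 0.70 ± 0.19, Dnajc11 by 0.35 ± 0.10 and Hspa9 by 0.33 ± 0.10 (adjusted p = 0.0345 to 0.0436). A pseudogene matches 90.5% of the Dnajc17 transcript.

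The count of 11 rested on few mice. Omitting mouse 1 or mouse 2 of the wild-type vehicle group gave 0. Omitting mouse 2 or mouse 3 of the wild-type drug group gave 3 and 5. Since all groups share 1 estimate of spread, R6/2 mice mattered too: omitting drug mouse 1 or 2 gave 6 and 3, and omitting vehicle mouse 2 or 3 gave 7 and 3. With the 2 wild-type groups fitted alone the count was 1. At an unadjusted p under 0.05, 27 members passed, against 34.1% of all genes. Groups did not overlap for 29 members, against 36.1% of all genes.

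In R6/2, PLX3397 changed 0 of 67 members in the limma test, against 1.10% of all genes (0.0585% higher and 1.04% lower). At an unadjusted p under 0.05 there were 8, against 13.1% of all genes, and limma-voom on the recovered reads also called 0. Those nearest to a call were Dnajc10, a disulfide reductase of the endoplasmic reticulum (0.36 ± 0.12), Dnajb5 (-0.58 ± 0.19), Hspa13 (0.49 ± 0.16) and Dnajb4 (0.38 ± 0.13), with adjusted p = 0.268 to 0.297. They were followed by Hspa4l, an Hsp110 (0.61 ± 0.22), Dnajb11, a co-chaperone of Hspa5 (-0.31 ± 0.13), Dnajc25 (-0.61 ± 0.25) and Hspb3 (-2.15 ± 0.95), with adjusted p = 0.306 to 0.380. The median change was 0.03 over the members and -0.01 over all genes. Groups did not overlap for 14 members, against 24.1% of all genes.

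With microglia depleted in both genotypes, R6/2 differed from wild type in 20 of 67 members, 12 higher and 8 lower, against 35.0% of all genes (17.1% higher and 17.9% lower). The members' share was thus below the background, and their median difference was -0.09, against -0.00 over all genes. All 9 medium spiny neuron markers were called lower in this contrast (median -2.70); their part in the members' differences was not tested. Hspa13 stood at 5.27, 5.17 and 5.71 log2 CPM in wild type and at 6.86, 6.88 and 6.52 in R6/2, with no overlap. It was higher by 1.37 ± 0.16 (2.58-fold; limma, adjusted p = 0.000452), and was called under all 22 alternatives (adjusted p = 0.000452 to 0.0484). Dnajb14 stood at 2.84, 1.78 and 2.87 in wild type and at 4.90, 4.94 and 4.64 in R6/2, a difference of 2.33 ± 0.41 (5.03-fold; adjusted p = 0.00245).

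Dnajc6, the neuronal auxilin that recruits Hspa8 to clathrin coats, stood at 7.83, 7.65 and 8.08 log2 CPM in wild type and at 8.75, 8.44 and 8.77 in R6/2. All R6/2 mice lay above all wild-type mice (0.80 ± 0.17; limma, adjusted p = 0.00577). Dnajc13, an endosomal J-domain protein, was higher by 1.03 ± 0.24, the small GTPase Dnajc27 by 0.73 ± 0.15 and Dnajc28 by 0.88 ± 0.20 (adjusted p = 0.00438 to 0.00839). Dnajb9 (0.54 ± 0.13), Dnajc3 (0.76 ± 0.18), Dnajc10 (0.43 ± 0.12), Hspa4l (0.80 ± 0.22) and Dnajc18 (0.35 ± 0.11) completed the higher members beside Hspa8, with adjusted p = 0.00961 to 0.0292. Dnajc5, the cysteine string protein of synaptic vesicles, stood at 8.41, 7.45 and 7.99 in wild type and at 8.60, 8.46 and 8.40 in R6/2 and was not called.

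The 8 lower members were led by Dnajb5, at 6.90, 7.15 and 7.21 log2 CPM in wild type and 5.58, 6.01 and 6.35 in R6/2 (-1.10 ± 0.19; limma, adjusted p = 0.00208). Dnajc8 stood at 6.76, 7.00 and 6.77 against 6.27, 6.10 and 6.02 (-0.72 ± 0.13; adjusted p = 0.0024). Hsph1, the inducible Hsp110, stood at 9.01, 8.58 and 9.06 against 8.29, 8.25 and 8.34 (-0.59 ± 0.14; adjusted p = 0.00867). In each of these 3 genes every R6/2 mouse lay below every wild-type mouse. Hspe1, the mitochondrial co-chaperonin, stood at 5.56, 6.06 and 5.85 against 5.44, 5.32 and 5.03 (-0.56 ± 0.17; adjusted p = 0.0286). Its partner Hspd1 stood at 7.08, 7.41 and 7.41 against 7.30, 7.27 and 7.22 and was not called. Dnajc7 (-0.56 ± 0.12), Dnajb11 (-0.50 ± 0.13), Dnajc17 (-0.71 ± 0.19) and the Hsp70 exchange factor Hspbp1 (-0.66 ± 0.20) were also lower, with adjusted p = 0.00552 to 0.0273.

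Groups did not overlap for 33 members, against 46.8% of all genes. Without the 2 R6/2 drug mice low in Slc17a7, 1 mouse is left in that group, so fewer calls in that fit cannot be told apart from lost power. With the 2 drug groups fitted alone the count was 10, against 20 in the main fit.

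**Figure D2:**
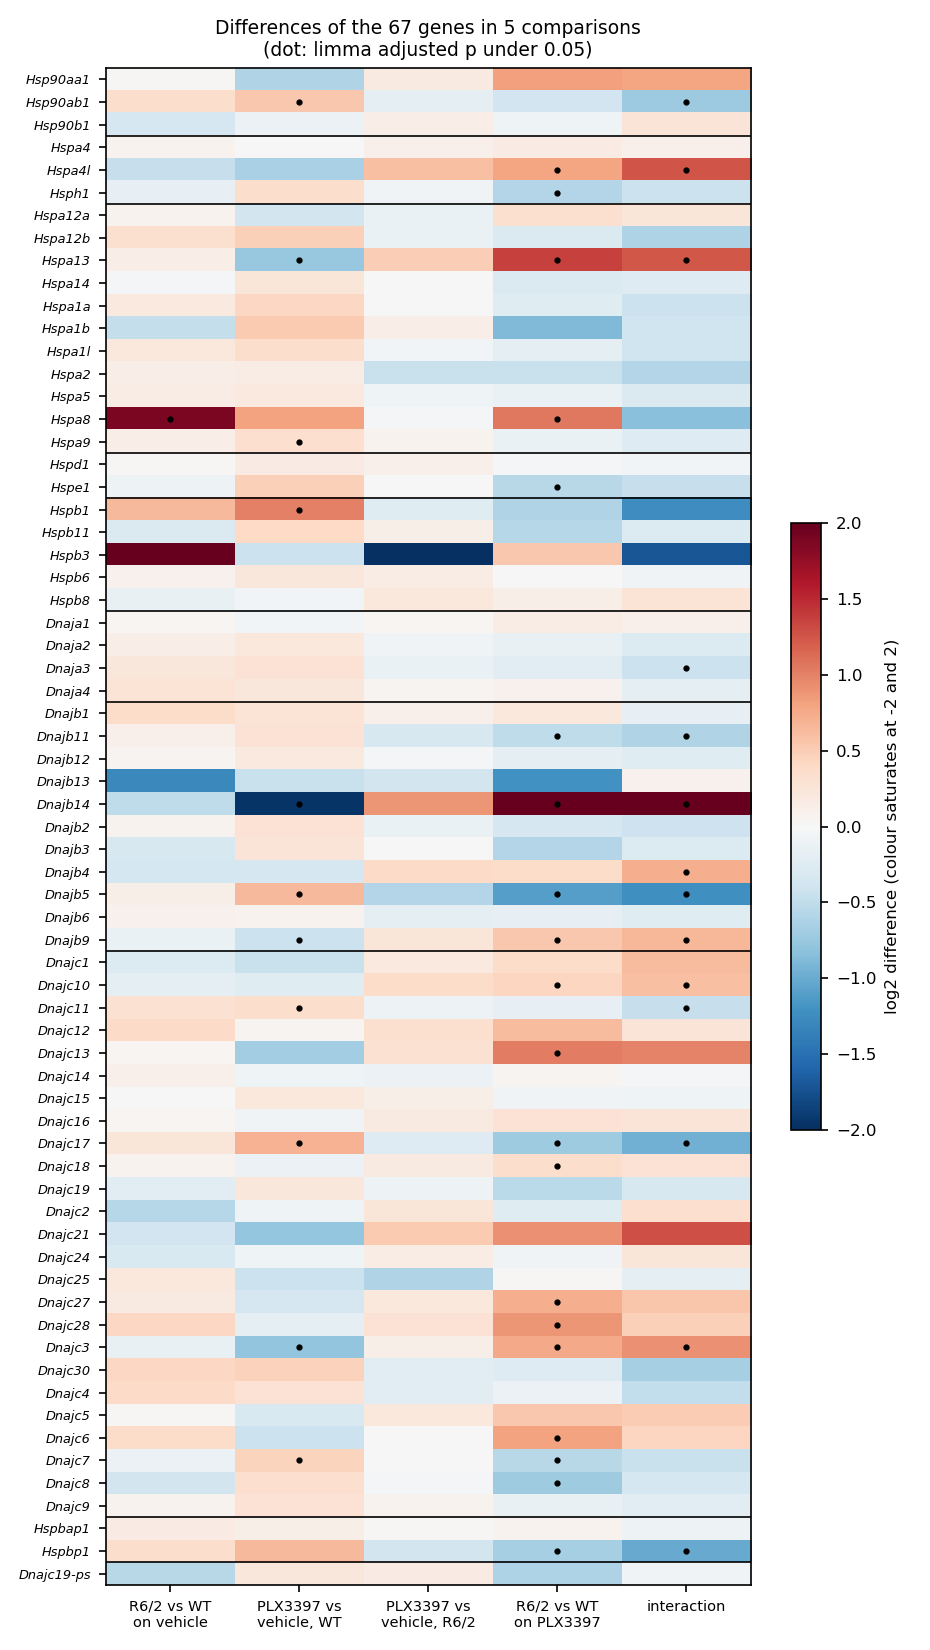
Log2 differences of the 67 members (rows, ordered by class and divided by lines) in 4 comparisons and the interaction (columns); red is higher, blue lower, colour saturates at 2 log2 units, and a dot marks an adjusted p under 0.05. The R6/2 against wild type column on vehicle holds 1 dot, at Hspa8, the drug column in R6/2 holds 0, and the column on PLX3397 holds 20.

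The interaction asks whether the drug difference was itself different in R6/2. It was called for 14 of 67 members, 7 higher and 7 lower, against 17.0% of all genes (9.29% higher and 7.71% lower), with a median of -0.18 over the members and -0.05 over all genes. The 7 above 0 were Hspa13 (1.24 ± 0.22; limma, adjusted p = 0.0139), Dnajb14 (2.84 ± 0.58), Hspa4l, Dnajb4, Dnajc10, Dnajb9 and Dnajc3. The 7 below 0 were Dnajb5 (-1.23 ± 0.26; adjusted p = 0.0181), Hsp90ab1 (-0.73 ± 0.21), Hspbp1, Dnajc17, Dnajb11, Dnajc11 and the mitochondrial J-domain protein Dnaja3. Leaving out 1 mouse gave counts of 12 to 16 for 3 of the mice and of 2 to 9 for the other 9. The 9 were wild-type vehicle mouse 1 or 2 (3 and 2 calls), wild-type drug mouse 2 or 3 (8 and 9), R6/2 vehicle mouse 1, 2 or 3 (3, 5 and 6) and R6/2 drug mouse 1 or 2 (3 each). Without both of the last named, which leaves 1 mouse in that group, the estimate was 1.01 for Hspa13, 2.65 for Dnajb14 and -0.85 for Dnajb5.

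The drug difference had opposite signs in wild type and R6/2 in 73.1% of the members, and in 72.3% of all genes. Spearman's rho between the 2 differences was -0.54 over the 67 members and -0.52 over 15397 genes, as a description of these 12 libraries, which share no mouse between the genotypes. With each library's trend in GC content and length removed (described next), opposite signs held in 45.5% of 66 members and 58.6% of 14305 genes, and rho was -0.30 and -0.32.

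**Figure D3:**
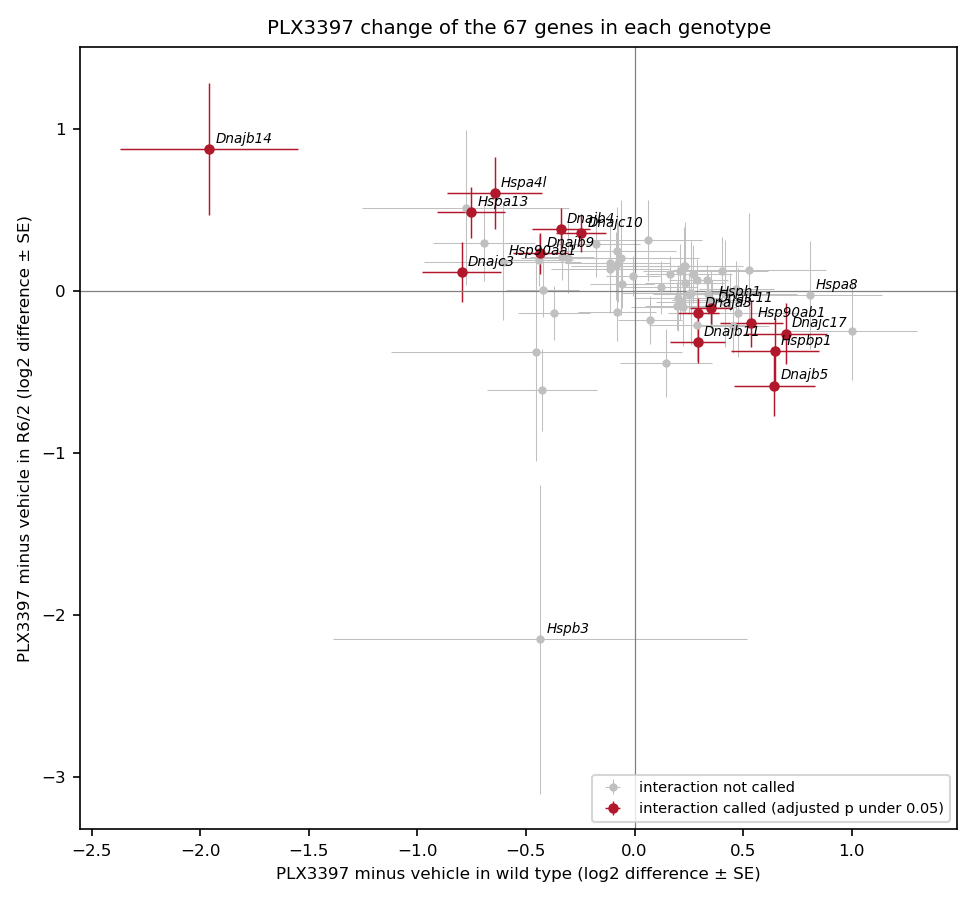
PLX3397 minus vehicle in wild type (horizontal axis) against the same in R6/2 (vertical axis), log2 difference with SE, 1 point for each of the 67 members; red points are the 14 with a called interaction. Dnajb14, Hspa13, Hspa4l and Dnajc3 lie below 0 in wild type and above 0 in R6/2, and Dnajb5, Hspbp1 and Hsp90ab1 the other way.

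The drug differences of the members followed the GC content of their transcripts. Over the 66 members with a transcript model, Spearman's rho with GC content was 0.57 in wild type and -0.56 in R6/2, and over 14305 genes it was 0.52 and -0.47. Within libraries, rho between a gene's deviation from its mean and its GC content ranged from -0.36 to 0.04 in wild-type vehicle, from 0.23 to 0.44 in wild-type PLX3397, from -0.00 to 0.29 in R6/2 vehicle and from -0.51 to -0.18 in R6/2 PLX3397. The trend of each library with GC content and length was therefore removed and the test repeated on 14305 genes. In wild type 11 members were again called for the drug, against 8.04% of genes, and 3 of them were the same: Hspa9, Dnajc11 and Dnajb5. None of the 11 was lower, and Hspa13 moved from -0.75 to -0.11, Dnajc3 from -0.80 to -0.22 and Dnajb14 from -1.96 to -0.97 (adjusted p = 0.742, 0.360 and 0.0727).

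Members called for the drug in wild type with the trend removed included Hsph1 (0.62; limma, adjusted p = 0.00847), the cytosolic J-domain proteins Dnaja1 (0.71) and Dnaja2 (0.58), Hspe1 (0.46) and Dnajc8 (0.51), with adjusted p = 0.0185 to 0.0286. For the interaction 5 members were called, against 3.96% of genes: Dnajb5 (-1.19), Dnajc11 (-0.64), Hsph1 (-0.73), Dnaja1 (-1.06) and Dnaja2 (-0.78), with adjusted p = 0.0311 to 0.0492. On PLX3397, R6/2 against wild type gave 17 calls, against 24.6% of genes. Of these, 10 were called the same way in the values as deposited: Hspa13, Dnajb14, Dnajc6, Dnajc27 and Dnajc28 higher, and Dnajb5, Dnajc7, Dnajc8, Hsph1 and Hspe1 lower. In R6/2 the drug again changed 0 members, against 1.12% of genes. Hspa8 in R6/2 on vehicle was 1.93 (adjusted p = 0.0196) and remained the only call, against 6.05% of genes.

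**Figure D4:**
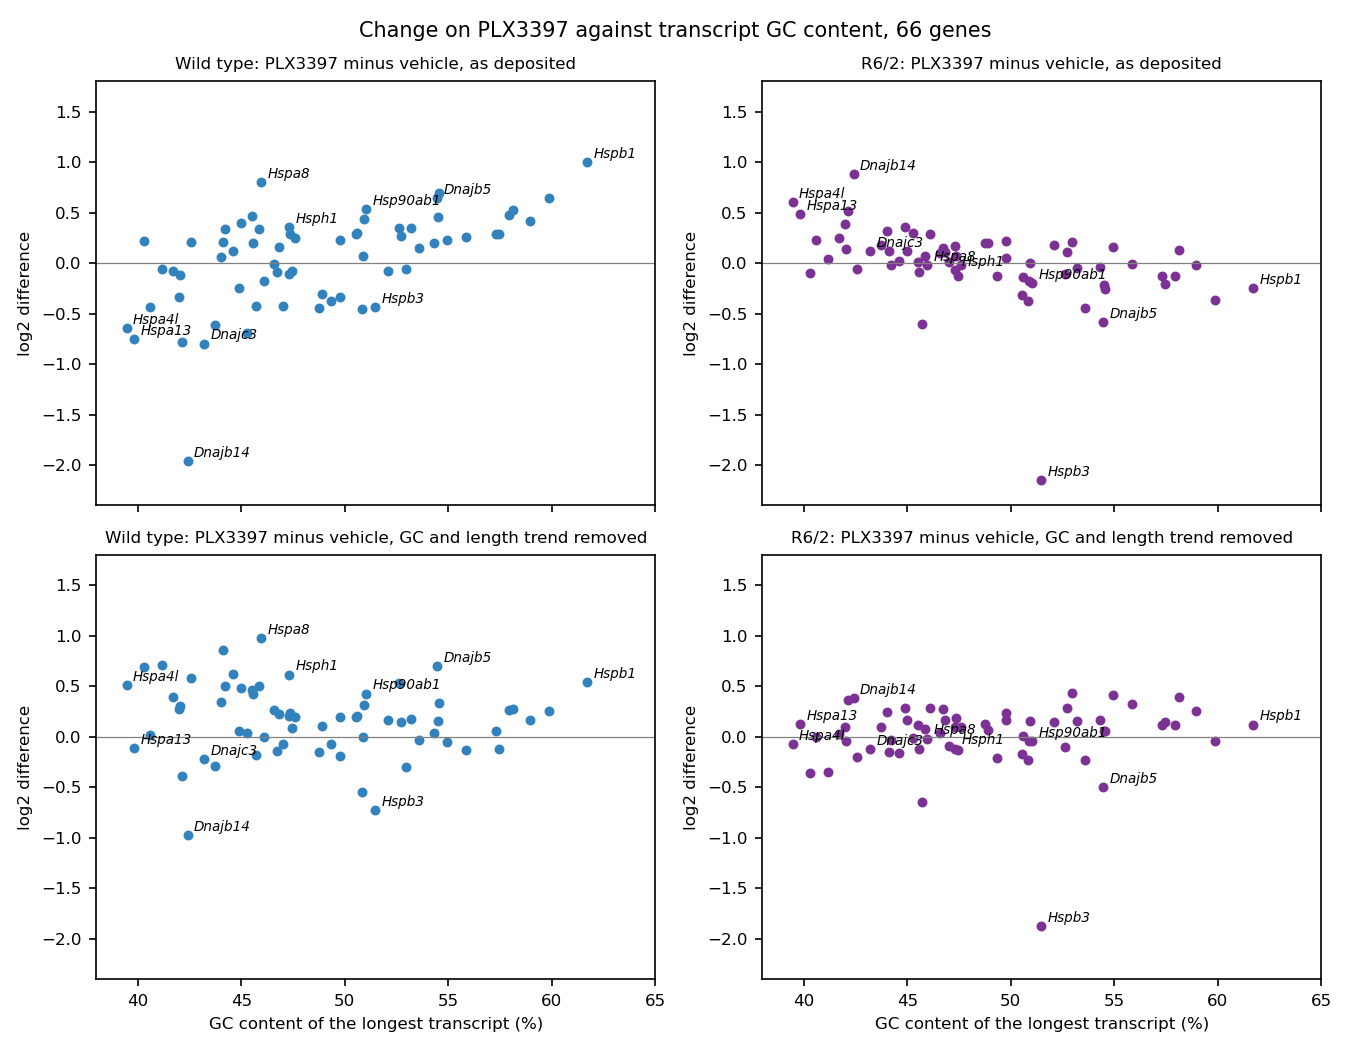
Change on PLX3397 (vertical axis, log2 difference) against the GC content of the longest transcript (horizontal axis, percent) for 66 members, in wild type (left) and R6/2 (right), as deposited (top) and after removal of each library's trend in GC and length (bottom). Spearman's rho is 0.57 in wild type and -0.56 in R6/2 before removal. After removal it is smaller in size and opposite in sign, at -0.16 and 0.21.

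Averaged over vehicle and drug, R6/2 differed from wild type in 12 members, 7 higher and 5 lower, against 22.4% of all genes (10.5% higher and 11.9% lower). With the trend in GC and length removed 16 were called, against 26.6% of genes. Beside Hspa8, those called under all 21 alternatives were Hspa13 (0.75 ± 0.11; limma, adjusted p = 0.00154), Dnajc6 (0.58 ± 0.12) and Dnajc8 (-0.54 ± 0.09). Dnajc8 was the 1 member whose 6 R6/2 mice (5.98 to 6.34 log2 CPM) lay outside the range of the 6 wild-type mice (6.40 to 7.00), against 7.27% of all genes. Dnajc28 (0.64 ± 0.14), Dnajc27 (0.46 ± 0.10), Dnajc13 (0.53 ± 0.17) and Dnajb14 (0.91 ± 0.29) were higher. Dnajc7 (-0.34 ± 0.08), Hsph1 (-0.38 ± 0.10), Dnajb5 (-0.49 ± 0.13) and Dnajc19-ps (-0.59 ± 0.19) were lower, all with adjusted p = 0.0103 to 0.0477.

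By role, the 13 members known as Hsf1 targets gave 1 call in R6/2 on vehicle (Hspa8, median of the list 0.04), against 2.11% of all genes. In wild type on the drug 2 were called, both higher (Hsp90ab1 and Hspb1, median 0.36), against 14.2% of all genes. With the GC and length trend removed neither was called (limma, adjusted p = 0.0921 and 0.240). Hsph1, Dnaja1 and Hspe1 of this list were then called higher instead, against 8.04% of genes called. In R6/2 against wild type on PLX3397, 1 was higher and 2 lower (Hspa8, Hsph1 and Hspe1, median -0.04), against 17.1% and 17.9% of all genes. Dnajb1, the main inducible partner of Hspa1a, stood at 5.38 to 5.74 log2 CPM in wild-type vehicle mice and at 5.73 to 6.08 in R6/2 vehicle mice (0.37 ± 0.18, adjusted p = 0.248). Hspa4, a constitutive Hsp110, spanned 8.13 to 8.50 log2 CPM over all 12 libraries, and Dnaja1 spanned 6.99 to 7.64. Hsp90aa1 spanned 8.38 to 8.82 in 11 libraries and stood at 6.81 in mouse 1 of the wild-type drug group. That mouse is also high in Ttr and low in cortical excitatory neuron markers. The drug difference of Hsp90aa1 in wild type was -0.61 ± 0.36 (limma, adjusted p = 0.254).

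The 7 measured members of 8 reported to suppress polyglutamine aggregation gave Hspa8 as the 1 call in R6/2 on vehicle, against 2.11% of all genes. Their median was 0.07. Dnajb6, among the most potent of these in cell assays, stood at 5.35 to 5.38 log2 CPM in wild-type vehicle and 5.42 to 5.50 in R6/2 vehicle mice. Dnajb2, a neuronal J-domain protein that works with the proteasome, stood at 7.01 to 7.08 against 6.94 to 7.39. Neither was called in any of the 6 comparisons. Hsph1 was the member of this list that was lower in R6/2 than in wild type on PLX3397, against 17.9% of all genes.

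The 8 members listed for the endoplasmic reticulum, which leave out Dnajb14, gave 3 lower calls in wild type on the drug, against 8.30% of all genes. These were Hspa13, Dnajc3 and Dnajb9 (median of the list -0.34). After the trend in GC and length was removed 0 were called (median 0.04), against 8.04% of genes. Hspa5, the sensor-binding chaperone whose transcript marks the unfolded protein response, stood at 8.52, 8.58 and 8.61 log2 CPM in wild-type vehicle mice. In the other 9 mice Hspa5 spanned 8.52 to 9.01. Hsp90b1 was lowest, at 8.06, in mouse 1 of the wild-type drug group and spanned 8.45 to 9.31 in the other 11. Neither Hspa5 nor Hsp90b1 was called in any comparison. Both, like Dnajc3, hold the letters of the stress response element, which was searched for after the values were seen.

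The 8 mitochondrial members were all above 0 for the drug in wild type, with 2 called (Hspa9 and Dnajc11), a median of 0.31 and a range of 0.16 to 0.47, against 14.2% of all genes called and a median of 0.00. With the trend removed the median was 0.48 and 4 were called, against 8.04% of genes and a median of 0.09. In R6/2 their median drug difference was -0.04 with 0 called, against 1.10% of all genes. On the drug all 8 were below 0 in R6/2 against wild type (median -0.18, 1 called, against 35.0% of all genes). The 5 nerve terminal and neuronal members gave 1 call in wild type on the drug (Dnajb5, higher, with a list median of -0.31), against 14.2% of all genes. In R6/2 against wild type on the drug, 1 was higher (Dnajc6) and 1 lower (Dnajb5), against 17.1% and 17.9% of all genes.

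Small heat shock genes were low apart from Hspb8. Hspb8, a partner of Bag3 in autophagy, spanned 3.14 to 4.77 log2 CPM, and Hspb6 spanned 2.16 to 3.03; neither was called. Hspb3 rested on 5, 7 and 6 reads in wild-type vehicle mice and 17, 69 and 39 in R6/2 vehicle mice, with 0 to 10 in wild type and 1 to 36 in R6/2 on the drug. Dnajb13, a J-domain protein of motile cilia, had 28 to 53 reads in wild-type vehicle and 5 to 30 in R6/2 vehicle mice. The 8 ependymal and ciliated markers summed to 64.4 to 124 CPM in those wild-type mice and 24.0 to 45.7 CPM in those R6/2 mice; their part in the Dnajb13 values was not tested. Hspa2, a germ-line Hsp70 also found in brain, spanned 4.25 to 5.28 log2 CPM and was not called. In all, 27 of the 67 members were called in at least 1 of the 6 comparisons and 40 in none, against 44.1% of all genes called in at least 1.

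Genes that work with these chaperones were read from lists of known partners. Of 5 heat shock factors and regulators, Hsf1 was higher in wild type on the drug (0.48 ± 0.13; limma, adjusted p = 0.0365) and stood at 0.34 after removal of the GC trend (adjusted p = 0.0640). In R6/2 on vehicle none of the 5 was called (Hsf4 0.50 ± 0.45, Hsf5 0.62 ± 0.39, Hsbp1 0.17 ± 0.15). Among drug-treated mice, Hsf2 was higher in R6/2 than in wild type by 0.39 ± 0.11 and Hsbp1, which restrains Hsf1, was lower (-0.45 ± 0.15), with adjusted p = 0.0224 and 0.0328.

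Of 23 co-chaperones of Hsp70 and Hsp90, 0 were called in R6/2 on vehicle by limma or limma-voom, with 8 at an unadjusted p under 0.05, against 22.6% of all genes. The nucleotide exchange regulator Bag2 stood at 0.96 ± 0.23 there (adjusted p = 0.0605), and Tomm34 and Bag5 at 0.52 ± 0.15 and -0.37 ± 0.12. Averaged over both treatments Bag2 was higher (0.93 ± 0.17; limma, adjusted p = 0.00371), and Bag5 (-0.61 ± 0.08) and Fkbp5 (-0.66 ± 0.12) were lower. In wild type on the drug 7 co-chaperones were higher, among them Bag6 (0.52 ± 0.11) and Sgta (0.61 ± 0.14), and 1 was lower, Cdc37l1 (-0.82 ± 0.15), against 5.93% of all genes higher and 8.30% lower. With the GC and length trend removed 4 were higher and 0 lower. In R6/2 against wild type on PLX3397, 5 were higher and 8 lower, against 17.1% and 17.9% of all genes, with Cdc37l1 at 0.94 ± 0.15, Bag5 at -0.84 ± 0.12 and Fkbp8 at -0.94 ± 0.14. There, 2 were higher and 5 lower with the trend removed.

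The 14 genes of the cytosolic chaperonin and prefoldin were all above 0 in R6/2 on vehicle (median 0.20), with 0 called by limma or limma-voom and 3 at an unadjusted p under 0.05, against 22.6% of all genes. In wild type on the drug 3 of them were higher, against 5.93% of all genes, with a median of 0.36. Of 11 measured relatives with other names, the mitochondrial Hsp90 Trap1 was higher in wild type on the drug (0.32 ± 0.09; limma, adjusted p = 0.0434). Cryab (-0.85 ± 0.21), Sil1 (-0.69 ± 0.21) and Grpel1 (-0.53 ± 0.18) were lower in R6/2 than in wild type on PLX3397, against 17.9% of all genes.

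Outside the members, the genes whose log2 values over the 12 libraries were most like those of Hspa8 were 1700063D05Rik (Pearson's r = 0.93), Dhx37 (0.92), Klhl12 (0.91), Wrnip1 (0.91) and 2310030G06Rik (0.91). Among the members the most alike was Dnajb1 (r = 0.59), so no other chaperone of this set tracked Hspa8 closely. For Hsp90aa1 the most alike were Zfp260 and Rabep1 (r = 0.98 each), Rnf170 (0.98), Gm20300 and Epc2 (0.97 each), and all 5 were likewise lowest in mouse 1 of the wild-type drug group. Among the members Dnaja1 was most like Hsp90aa1 (r = 0.86). These coefficients are descriptions over libraries that share groups and were not tested.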

How the data were processed

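Total RNA of the striatum of 12 mice was sequenced from TruSeq libraries, per the labels' protocols. STAR, featureCounts, edgeR, limma and build mm10 are named in the submitters' processing notes, without versions. The table deposited by the authors calls its values RPKM. They behave as log2 CPM with a prior of about 2 reads: every library shares the lowest value -3.46, and whole reads were recovered for 100% of the values (tolerance 0.1 read). Its rows carry 15397 symbols with gene numbers.

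The members and gene lists were chosen with earlier results of these data known. Group means were fitted with limma 3.58.1 (R 4.3.3; lmFit, eBayes with an intensity trend) over all 12 libraries, with Benjamini-Hochberg adjustment over 15397 genes and a call at adjusted p under 0.05; tests were two-sided. The 3 mice per group are separate animals, per the labels. Fold changes are on the deposited log2 scale and understate those of low genes. Named were up to 8 members with the smallest p in each comparison, 28 chosen for their known roles and up to 3 genes of each related list. Alternatives are in the closing section; the count model run was limma-voom on recovered reads. Transcript length and GC content came from the longest GENCODE M21 transcript (14305 genes, 92.9%; 66 members); per-length levels were computed from it. The stress response element was added to the motif search after the values were seen. Protein sequence features were not used here. The script was tested on simulated data.

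Replicate numbers were checked and did not pair the libraries.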

Additional observations from a re-analysis of the deposited data

Results flagged for a closer look

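The drug difference in R6/2 minus that in wild type passed limma's interaction test (adjusted p under 0.05) for 14 members, which are listed for a closer look because the same treatment gave different changes in the 2 genotypes. Above 0 were Dnajb14 (2.84), Hspa4l (1.25), Hspa13 (1.24), Dnajc3 (0.92), Dnajb4 (0.72), Dnajb9 (0.67) and Dnajc10 (0.61), on the log2 scale. Below 0 were Dnajb5 (-1.23), Hspbp1 (-1.02), Dnajc17 (-0.96), Hsp90ab1 (-0.73), Dnajb11 (-0.61), Dnajc11 (-0.46) and Dnaja3 (-0.43). With the GC and length trend of each library removed, 2 of the 14 were still called in the same direction, Dnajb5 and Dnajc11. The share of members called, 14 of 67, stood beside 17.0% of all genes.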

How the results depend on the processing

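Counts of members called were 1 for genotype on vehicle, 11 and 0 for the drug in wild type and in R6/2, 20 for genotype on PLX3397, 14 for the interaction and 12 for the averaged genotype effect. Leaving out 1 library at a time gave 0 to 2, 0 to 12, 0 to 0, 14 to 24, 2 to 16 and 8 to 17, in that order. With the replicate block they were 0 on vehicle, 4 for the drug in wild type and 4 for the interaction; the numbers did not pair the samples (3 of 18 same-number pairs correlated over 0.1, and 1 of 12 libraries was closest to its own number). Without R6/2 Vehicle 1 and Wild-type PLX3397 1, the pair high in choroid plexus genes, they were 0 on vehicle, 18 for the drug in wild type, 7 for the interaction and 20 for the averaged effect. Without R6/2 PLX3397 libraries 1 and 2, which leaves 1 mouse in that group, assumed to vary like the others, they were 4 for the drug in wild type, 1 on PLX3397, 0 for the interaction and 4 averaged. Fitting only the groups compared gave 1 for the drug in wild type and 10 on PLX3397. Without the intensity trend the drug in wild type gave 6. Removing the GC and length trend gave 5 for the interaction, and turned 6 values: Hspa4l to -0.59, Dnajb4 to -0.19 and Dnajb9 to -0.023 in the interaction, Hspa4l to -0.076 for the drug in R6/2 and to -0.35 on PLX3397, and Dnajb9 to 0.019 for the drug in wild type. Over 73 pairs of a named member and a comparison, 1204 of 1579 values kept direction and side of the threshold, 369 kept direction but lost the call, and 6 reversed. Many settings cannot move an estimate, such as leaving out a library of a group not compared or changing only the estimate of spread. Members not called in the main fit, as for the drug in R6/2, count as kept where they stayed uncalled. The tally is therefore not a measure of how stable the directions are. The causes were not tested. With 3 mice per group, small changes of members with few reads, such as Hspb3, Hspa1a and Hspa1b, could not be resolved at this depth.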
